A study of Mus musculus with 7 samples.

Results

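The Hox genes encode homeodomain transcription factors and lie in 4 clusters, Hoxa on mouse chromosome 6, Hoxb on chromosome 11, Hoxc on chromosome 15 and Hoxd on chromosome 2. Members were taken from the authors' annotation as protein-coding genes named Hox, a cluster letter and a number, which gave 39 of the 23996 genes in the tables. Of these, 15 had a mean FPKM of at least 1 over the 7 libraries, and 16 reached 1 in at least 1 library. FPKM divides a gene's fragments by its length and by a measure of library size, so levels can be set side by side between genes.

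The series was made by RNA-seq to look for a factor that matters when 3T3-L1, a line derived from mouse embryo fibroblasts, is induced to form fat cells. The 7 libraries, 1 per condition, were a 0h control of confluent cells before induction, CM and MDI libraries taken at 4 h and at 24 h, and a preconfluent pair, Pro CM and Pro MDI, with no time given. MDI is a mixture of IBMX (a phosphodiesterase inhibitor), dexamethasone (a glucocorticoid) and insulin. CM is conditioned medium, that is, MDI medium collected from 3T3-L1 cells 48 h into differentiation. Every treated culture therefore received MDI medium, fresh or already used by cells, and no uninduced library was taken at 4 h, at 24 h or from preconfluent cells. The amount of the inducers left in CM was not measured in these data. Inducers, new medium, time and density cannot be told apart in comparisons with 0h.

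Hox genes are named for their order along a cluster. In embryos the low-numbered genes, at one end, are active further forward in the body than the high-numbered genes at the other, and genes that share a number in different clusters are paralogs. Hox proteins bind DNA together with cofactors of the Pbx, Meis and Pknox families. Polycomb proteins hold Hox clusters silent and trithorax proteins keep them active. Fibroblasts and fat depots keep a Hox pattern that reflects where in the body they arose, which is why Hox genes are read as a record of positional identity.

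With 1 library per condition, no pair of libraries has a replicate check. Differences between libraries are given on the log2(FPKM + 1) scale with a rule of size of at least 2-fold, which is a log2 difference of 1. Depth per library is unknown. Summed over all genes, FPKM was lowest in the 0h control, at 558532, and highest in 4h MDI, at 714427. Rescaling to an equal sum per library (TPM) therefore lowers each treated library relative to the 0h control. The spacing of FPKM under 0.15 placed the worth of a read within 1.43-fold across the libraries, with the smallest worth in Pro CM. From 10530 to 11101 genes per library reached an FPKM of 1. The labels call the cells adipocytes. Adipoq, the fat cell hormone adiponectin, stayed between 0 and 0.930, and the leptin gene Lep was listed at 0 in all 7 libraries. Of 12 adipocyte markers 7 had a mean of at least 1, among them the fatty acid binding protein gene Fabp4 (27.9 to 108) and the regulator Pparg (11.8 to 54.1). Their sum was 169 at 0h, 623 in 24h CM and 76.0 to 233 in the other libraries. The fibroblast collagen gene Col1a1 ran from 425 to 1996. Of 6 endothelial and 6 epithelial markers none reached a mean of 1.

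The Hox pattern of these cells was one of anterior and middle genes. All of paralog groups 2 and 3 had a mean FPKM of at least 1, that is Hoxa2 and Hoxb2, and Hoxa3, Hoxb3 and Hoxd3. In group 4 the genes were Hoxa4, Hoxb4 and Hoxd4, with Hoxc4 the exception at a mean of 0.0189. Groups 5 to 9 each had 1 such gene, from Hoxa5 to Hoxa7 in the Hoxa cluster and then Hoxd8 and Hoxd9. Groups 10, 11 and 12 had none. By cluster, 7 of 11 Hoxa genes, 3 of 10 Hoxb genes, 1 of 9 Hoxc genes and 4 of 9 Hoxd genes passed that level. The one Hoxc gene was Hoxc13, at the far end of its cluster, with a mean of 1.08.

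**Figure D1:**
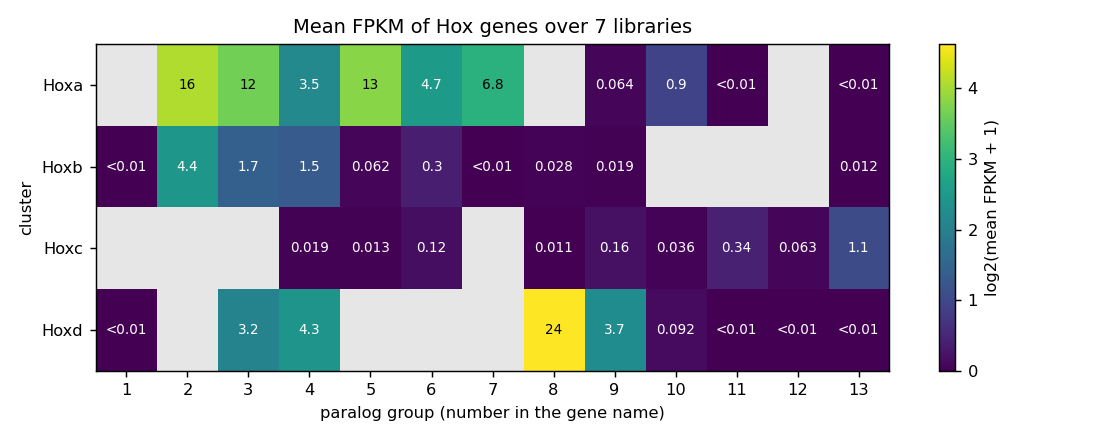
Mean FPKM over the 7 libraries for 38 of the 39 Hox genes, with clusters as rows and the number in the gene name as columns; color is log2(mean FPKM + 1), numbers are mean FPKM and gray cells hold no value. Levels of at least 1 run from Hoxa2 to Hoxa7, from Hoxb2 to Hoxb4 and from Hoxd3 to Hoxd9, with Hoxc13 on its own at 1.08.

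The other 23 genes stayed under 1 in each library, and the median of their highest values was 0.0454. The highest among them was Hoxc11 at 0.833 in the 0h control. Hoxa11, Hoxa13 and Hoxd12 were listed at 0 in all 7 libraries. Hoxa10 lay next to the threshold, with a mean of 0.904 and a highest value of 1.81 at 0h.

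The 4 Hoxd genes with a mean of at least 1 carry most of the differences between libraries. Their promoters are therefore printed, with that of Hoxa5, whose level did not follow theirs. Sequences are RefSeq promoters (build GRCm38.p6, 250 bases before and 50 after a gene's annotated start), read 5′ to 3′ along the gene. Capitals mark matches on either strand to one of 6 motifs. These are TATAAA, the core promoter element of that name, CCAAT, bound by the factor NF-Y, GGGCGG, the GC box bound by Sp1, TGACG, the half-site of the cAMP response element, AGAACA, a half-site of the glucocorticoid receptor, and TGATNNAT, a site for Hox proteins with Pbx. In Hoxd3 the cAMP half-site and the CCAAT box overlap, and the capitals run together.
Hoxd9, chr2:74697513-74697812, plus strand: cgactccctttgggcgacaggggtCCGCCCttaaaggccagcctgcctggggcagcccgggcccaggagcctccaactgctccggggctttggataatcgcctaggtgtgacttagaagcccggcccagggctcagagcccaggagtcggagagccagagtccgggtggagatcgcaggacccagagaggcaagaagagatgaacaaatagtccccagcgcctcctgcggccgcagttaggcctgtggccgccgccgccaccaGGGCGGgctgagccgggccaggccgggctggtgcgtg
Hoxd8, chr2:74704365-74704664, plus strand: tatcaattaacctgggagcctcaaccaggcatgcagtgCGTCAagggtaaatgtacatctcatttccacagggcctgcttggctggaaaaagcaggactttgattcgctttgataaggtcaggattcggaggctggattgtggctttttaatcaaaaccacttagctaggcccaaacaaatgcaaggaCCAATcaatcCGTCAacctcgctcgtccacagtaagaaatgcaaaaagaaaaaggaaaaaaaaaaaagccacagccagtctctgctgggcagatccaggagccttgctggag
Hoxd3, chr2:74711743-74712042, plus strand: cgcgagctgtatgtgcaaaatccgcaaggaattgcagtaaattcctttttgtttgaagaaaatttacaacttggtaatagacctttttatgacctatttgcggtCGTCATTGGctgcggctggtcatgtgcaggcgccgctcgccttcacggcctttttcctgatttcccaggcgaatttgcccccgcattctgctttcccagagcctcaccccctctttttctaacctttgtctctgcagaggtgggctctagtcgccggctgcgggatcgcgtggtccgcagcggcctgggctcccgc
Hoxd4, chr2:74721728-74722027, plus strand: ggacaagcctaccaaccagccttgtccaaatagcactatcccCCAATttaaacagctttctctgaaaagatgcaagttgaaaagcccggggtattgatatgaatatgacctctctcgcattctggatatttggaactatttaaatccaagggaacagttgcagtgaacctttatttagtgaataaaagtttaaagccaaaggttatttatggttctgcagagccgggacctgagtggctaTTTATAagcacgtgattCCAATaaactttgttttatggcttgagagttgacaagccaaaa
Hoxa5, chr6:52204538-52204837, minus strand: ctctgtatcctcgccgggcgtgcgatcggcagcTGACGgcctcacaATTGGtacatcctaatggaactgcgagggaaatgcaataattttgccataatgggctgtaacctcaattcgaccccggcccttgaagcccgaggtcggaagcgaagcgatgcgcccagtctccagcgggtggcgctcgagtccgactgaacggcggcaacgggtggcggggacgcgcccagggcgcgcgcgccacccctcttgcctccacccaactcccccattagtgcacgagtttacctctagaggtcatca

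The 4 Hoxd promoters did not share a composition. G and C made up 68.3% of bases in Hoxd9, 46.7% in Hoxd8, 54.0% in Hoxd3 and 39.7% in Hoxd4, against a median of 52.7% over the 32851 promoters of the table. Hoxd9 held 2 GC boxes and none of the other motifs. Hoxd8 held 2 cAMP half-sites and 1 CCAAT box, and Hoxd3 held 1 of each. Hoxd4 had 1 TATA box and 2 CCAAT boxes. The Hoxa5 promoter, with 61.7% G and C, held 1 cAMP half-site and 1 CCAAT box. The cAMP half-site was in 20.8% of all promoters, the CCAAT box in 37.4%, the GC box in 35.7% and the TATA box in 13.6%. None of the 4 held the glucocorticoid half-site, which 19.0% of all promoters hold, or the Hox-Pbx site, which 8.85% hold. The table had promoters for 22 of the 39 Hox genes.

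The summed level of the family differed between stages, though not every member followed the sum. Summed over all 39 genes, Hox FPKM was 130.5 at 0h, 79.8 in 4h CM and 64.5 in 4h MDI, then 136 in 24h CM and 146 in 24h MDI. The Pro libraries were at 87.2 in CM and 83.3 in MDI. The 4h and Pro libraries were thus all lower than the 0h control and both 24h libraries. Hoxd accounted for most of the difference. The Hoxd sum was 53.3 at 0h, 18.5 in 4h CM, 15.7 in 4h MDI, 64.6 in 24h CM and 61.3 in 24h MDI, with 16.8 in Pro CM and 15.0 in Pro MDI. The Hoxa sum ranged from 43.6 in 4h MDI to 75.1 in 24h MDI. Hoxd therefore made up 40.8% of all Hox FPKM at 0h, 23.1% in 4h CM, 24.4% in 4h MDI, 47.4% in 24h CM and 42.1% in 24h MDI. It made up 19.3% in Pro CM and 18.0% in Pro MDI. In bulk RNA, fewer cells that express a gene and less of its RNA per cell cannot be told apart.

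**Figure D2:**
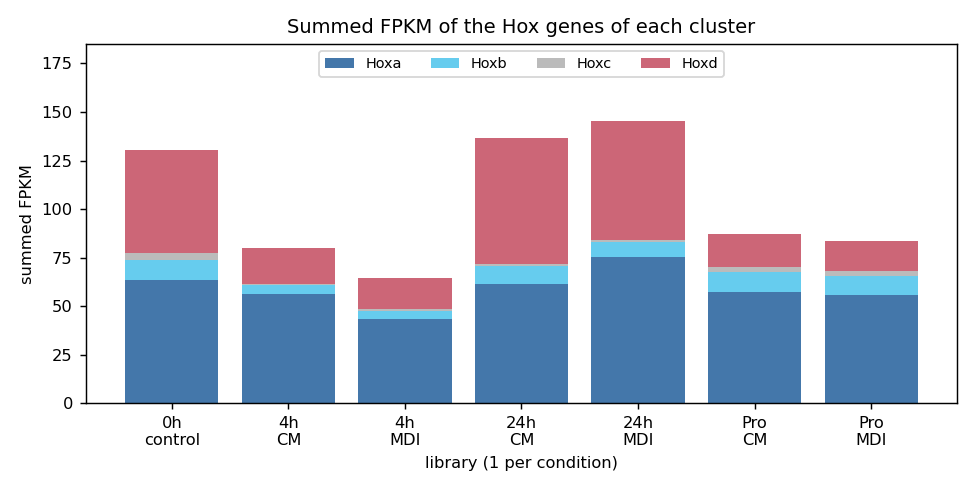
Summed FPKM of the Hox genes of each cluster (stacked bars from 0) in the 7 libraries, 1 per condition. The Hoxd part lies between 15.0 and 18.5 in the 4h and Pro libraries and between 53.3 and 64.6 in the 0h and 24h libraries.

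Hoxd8 (chromosome 2, 74704615 to 74707932, plus strand), a middle gene of the Hoxd cluster, was the most abundant Hox gene, with a mean of 23.8. Its FPKM was 30.6 at 0h, 12.9 in 4h CM, 12.2 in 4h MDI, 44.1 in 24h CM and 41.95 in 24h MDI. In preconfluent cells it was 13.2 in CM and 11.4 in MDI. It led all Hox genes at 0h and at 24h. At 4h Hoxa2 and Hoxa5 lay above it in both media. In Pro CM Hoxa3 and Hoxa5 lay above it, and in Pro MDI Hoxa2 did as well.

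Hoxd9 (74697763 to 74700208), the next gene toward the posterior end, was at 6.54 at 0h, 1.87 in 4h CM, 1.36 in 4h MDI, 6.21 in 24h CM and 5.89 in 24h MDI, with 2.12 in Pro CM and 2.17 in Pro MDI. Its neighbor Hoxd10 did not exceed 0.278. The 24h values of Hoxd9 were close to the 0h value, while those of Hoxd8 were above it.

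Hoxd3 and Hoxd4, the anterior genes of the cluster that are active here, share 1 locus in the authors' table (74710044 to 74748271). That locus also holds Hoxd3os1 on the opposite strand and the microRNA gene Mir10b. Strand use in the counting is not given in the sources used here, so reads may have been split between these genes. Hoxd3 was at 7.59 at 0h, 1.62 in 4h CM, 0.896 in 4h MDI, 6.17 in 24h CM and 4.98 in 24h MDI, and at 0.485 in Pro CM and 0.508 in Pro MDI. Hoxd4 was at 8.22 at 0h, 2.09 in 4h CM, 1.28 in 4h MDI, 8.06 in 24h CM and 8.34 in 24h MDI, and at 0.989 in Pro CM and 0.884 in Pro MDI. For each of these 4 Hoxd genes, every 4h and Pro value lay below every 0h and 24h value.

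**Figure D3:**
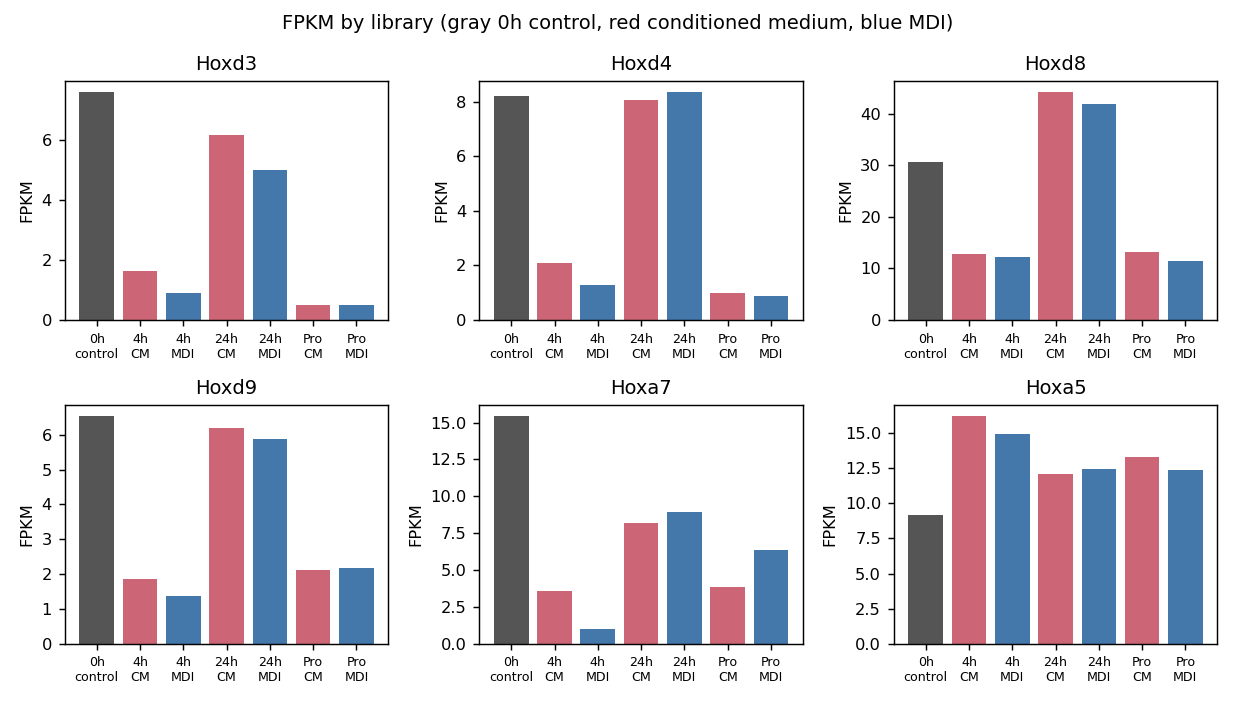
FPKM (bars from 0, a separate scale for each gene) of Hoxd3, Hoxd4, Hoxd8, Hoxd9, Hoxa7 and Hoxa5 in the 7 libraries, with the 0h control in gray, conditioned medium in red and MDI in blue. The 4 Hoxd genes are low at 4h and in preconfluent cells, Hoxa7 is highest at 0h with 15.4, and Hoxa5 is lowest at 0h with 9.19.

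The Hoxa genes, which lie on the minus strand of chromosome 6, did not move as one. Hoxa7 (52215624 to 52218573) was at 15.4 at 0h, 3.56 in 4h CM, 0.977 in 4h MDI, 8.18 in 24h CM and 8.93 in 24h MDI, and at 3.86 in Pro CM and 6.39 in Pro MDI. Its 0h value was the highest of the 7, and the 24h values were between those of 4h and 0h. Hoxaas3, an antisense gene, overlaps Hoxa7 in GENCODE, and its row in the tables, 2700086A05Rik, was between 0.557 and 1.79.

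Hoxa3, Hoxa4, Hoxa5 and Hoxa6 share 1 locus in the table (52169062 to 52213597) with 2700086A05Rik, so the same limit holds for them as for Hoxd3 and Hoxd4. Hoxa5, which acts in lung and axial skeleton development, was at 9.19 at 0h, 16.2 in 4h CM, 14.9 in 4h MDI, 12.1 in 24h CM and 12.4 in 24h MDI, and at 13.3 in Pro CM and 12.4 in Pro MDI. Its lowest value was the 0h control. Hoxa4 was at 3.29 at 0h, 1.55 in 4h CM, 1.09 in 4h MDI, 4.90 in 24h CM and 6.72 in 24h MDI, and at 3.93 in Pro CM and 3.07 in Pro MDI. Unlike the Hoxd genes it had Pro values on either side of the 0h value.

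Hoxa3, needed in mice for the thymus and parathyroid glands, was at 9.89 at 0h, 8.07 in 4h CM, 5.84 in 4h MDI, 10.8 in 24h CM, 15.8 in 24h MDI, 17.5 in Pro CM and 12.7 in Pro MDI. Its highest value was in Pro CM, the library in which its paralog Hoxd3 was lowest. Hoxa6 varied least, between 3.85 in 4h MDI and 5.48 in Pro MDI. Hoxa2, the most anterior Hox gene active in the branchial arches, was at 16.0 at 0h, 19.8 in 4h CM, 13.5 in 4h MDI, 17.5 in 24h CM, 22.4 in 24h MDI, 9.30 in Pro CM and 12.1 in Pro MDI.

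The Hoxb genes with a mean of at least 1 were all anterior. Hoxb2, which acts in facial nerve development, was at 4.16 at 0h, 2.39 in 4h CM, 2.80 in 4h MDI, 5.04 in 24h CM, 3.86 in 24h MDI, 6.75 in Pro CM and 6.09 in Pro MDI. Hoxb3 was at 2.81 at 0h, 1.09 in 4h CM, 0.691 in 4h MDI, 1.77 in 24h CM, 1.37 in 24h MDI, 2.00 in Pro CM and 2.02 in Pro MDI. Hoxb4, best known from blood stem cells, was at 2.36 at 0h, 0.997 in 4h CM, 0.571 in 4h MDI, 2.13 in 24h CM, 1.84 in 24h MDI, 1.32 in Pro CM and 1.46 in Pro MDI. All 3 had their lowest values at 4h, and Hoxb2 was highest in preconfluent cells. Hoxc13, known for its part in hair and nail formation, was at 1.75 at 0h, 0.286 in 4h CM, 0.775 in 4h MDI, 0.620 in 24h CM, 0.441 in 24h MDI, 2.09 in Pro CM and 1.58 in Pro MDI.

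Against the 0h control, no Hox gene was at least 2-fold higher at 4h in either medium. In 4h CM 6 of 16 measured Hox genes were at least 2-fold lower, beside 9.35% of all genes that were lower and 9.53% that were higher. These were Hoxa7 (log2 difference -1.85), Hoxd3 (-1.71), Hoxd4 (-1.58), Hoxd9 (-1.39), Hoxd8 (-1.19) and Hoxc13 (-1.10). In 4h MDI 9 of 16 were lower, beside 14.1% of all genes that were lower and 13.5% that were higher. The largest were Hoxa7 (-3.06), Hoxd3 (-2.18), Hoxd4 (-2.02), Hoxd9 (-1.67), Hoxd8 (-1.26) and Hoxa10 (-1.20), followed by Hoxb3, Hoxb4 and Hoxa4. The median difference of the 16 was -0.81 in CM and -1.07 in MDI, against -0.04 and -0.06 over all genes measured. These pairs share the 0h library.

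Averaged over both media in limma with all 7 libraries in the fit, 5 of 15 tested Hox genes fell at 4h and none rose, at a Benjamini-Hochberg adjusted p under 0.05, beside 6.86% of all 11015 genes that fell and 8.35% that rose. The residual has 2 degrees of freedom, made of the interaction of stage and medium and of library noise, so these p-values do not measure a spread of cultures. The single 0h library adds nothing to this residual. In contrasts against 0h it is assumed to vary like the treated libraries. The log2 change of Hoxd3 was -1.95 (SE 0.23, adjusted p = 0.0316). The others were Hoxd4 (-1.80, SE 0.23, adjusted p = 0.0325), Hoxd9 (-1.53, SE 0.20, adjusted p = 0.0325), Hoxd8 (-1.23, SE 0.17, adjusted p = 0.0326) and Hoxb3 (-1.02, SE 0.21, adjusted p = 0.0456). Hoxa7 had the largest estimate, -2.45, with an SE of 0.57 and an adjusted p of 0.0544, and was not called. Hoxa5 had an estimate of 0.70 (SE 0.18, adjusted p = 0.0626). Without the 24h libraries, which leaves 1 residual degree of freedom, none of the 5 was called, with adjusted p from 0.0846 for Hoxd3 to 0.0974 for Hoxd8 among the Hoxd genes and 0.123 for Hoxb3. Hoxb3 was also not called without the Pro libraries. Over 10 settings, the main one included, its estimate at 4h ran from -1.58 to -0.41, and 4 of them lost the call.

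**Figure D4:**
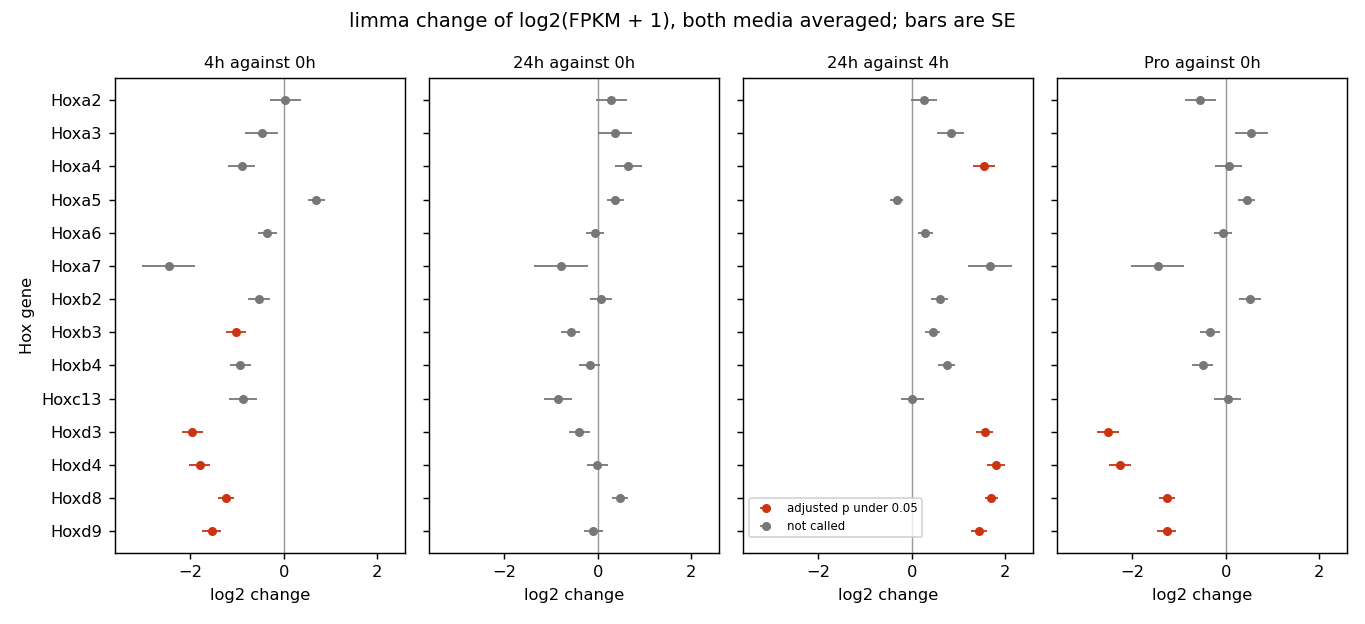
limma change of log2(FPKM + 1) for 14 of the 15 Hox genes with a mean FPKM of at least 1, in 4 contrasts with both media averaged; points are estimates, bars are SE and red marks an adjusted p under 0.05. The 4 Hoxd genes are red on the negative side at 4h and in preconfluent cells against 0h, and red on the positive side at 24h against 4h.

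At 24h the 4 Hoxd genes had values nearer to 0h than to 4h. Hoxd8 lay above its 0h value in both media, and Hoxd3 and Hoxd9 lay below theirs. Hoxa2, Hoxa3, Hoxa4 and Hoxa5 were also above their 0h value in both media. Hoxa6, Hoxa7, Hoxa10, Hoxb3, Hoxb4 and Hoxc13 were below it in both. None of 16 was at least 2-fold different from 0h in 24h CM, beside 18.2% of all genes, or in 24h MDI, beside 20.0%. The median Hox difference was -0.07 in both media. In limma none of 15 was called at 24h against 0h, beside 9.86% of all genes, and 3 had an unadjusted p under 0.05, beside 32.1% of all genes. In simulated data this contrast called 3% of genes changed 2-fold and 92% of those changed 4-fold. Fewer genes were changed there than were called here, which makes the adjustment stricter, so recovery in the real fit may differ. The absence of a call still does not show that a gene was at its 0h level. The 3 with an unadjusted p under 0.05 were Hoxc13 (log2 change -0.85, SE 0.29, adjusted p = 0.136), Hoxd8 (0.48, SE 0.17, adjusted p = 0.146) and Hoxb3 (-0.57, SE 0.21, adjusted p = 0.146). After rescaling to TPM 2 of 17 measured Hox genes in 24h CM and 3 of 18 in 24h MDI were at least 2-fold lower than at 0h. That scaling also moved the median of all genes in limma by -0.23 at 24h against 0h. The share of all genes was not computed under it.

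Between 4h and 24h, a comparison that does not use the 0h library in its pairs, 6 of 15 measured Hox genes were at least 2-fold higher in CM, beside 6.49% of all genes, and none was lower, beside 7.24%. In MDI 7 of 14 were higher, beside 12.1% of all genes, and none was lower, beside 13.6%. Hoxa4, Hoxa7, Hoxd3, Hoxd4, Hoxd8 and Hoxd9 were higher in both media, and Hoxa3 in MDI. These pairs were added after the values were seen. In limma 5 of 15 rose and none fell, beside 9.41% of all genes that rose and 9.11% that fell. Hoxd4 rose by 1.79 (SE 0.19, adjusted p = 0.0164), Hoxd8 by 1.70 (SE 0.14, adjusted p = 0.0123), Hoxd3 by 1.56 (SE 0.19, adjusted p = 0.0188), Hoxa4 by 1.55 (SE 0.24, adjusted p = 0.0275) and Hoxd9 by 1.44 (SE 0.17, adjusted p = 0.0176). Hoxa7 had an estimate of 1.67 (SE 0.46, adjusted p = 0.0673). Without a filter on low values only Hoxd8 was called.

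In preconfluent cells given CM or MDI the summed Hoxd level was near that of 4h. In Pro CM 5 of 16 Hox genes were at least 2-fold lower than at 0h, beside 15.7% of all genes that were lower and 14.2% that were higher. In Pro MDI 5 of 16 were lower, beside 13.4% that were lower and 12.3% that were higher. The same 5 genes were lower in both, Hoxd3 (log2 difference -2.53 in CM and -2.51 in MDI), Hoxd4 (-2.21 and -2.29), Hoxd8 (-1.16 and -1.35), Hoxd9 (-1.27 and -1.25) and Hoxa7 (-1.76 and -1.15), and no Hox gene was higher. The median difference of the 16 was -0.44 in CM and -0.35 in MDI, against -0.03 and -0.04 over all genes measured. In limma 4 of 15 fell against 0h and none rose, beside 12.6% of all genes that fell and 13.7% that rose. The 4 were Hoxd3 (log2 change -2.52, SE 0.23, adjusted p = 0.0091), Hoxd4 (-2.25, SE 0.23, adjusted p = 0.0104), Hoxd9 (-1.26, SE 0.20, adjusted p = 0.0202) and Hoxd8 (-1.25, SE 0.17, adjusted p = 0.0155). Hoxb2 and Hoxa3 had estimates above 0, 0.52 (SE 0.23) and 0.55 (SE 0.36), and neither was called. Without the 24h libraries Hoxd8 and Hoxd9 were no longer called.

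Genes that mark cell types also moved with these libraries. Dcn, a proteoglycan of fibroblast matrix, was at 0.661 in Pro CM and 1.87 in Pro MDI, against 386 in the 0h control. The muscle troponin gene Tnnt2 was at 85.1 in Pro CM and 20.2 in Pro MDI, against 1.68 in the 0h control. The summed level of 6 muscle markers, 85.6 and 20.8 against 2.78 at 0h, was nearly all Tnnt2. Myod1, Myog and Actc1 were at 0 in all 7 libraries, and Des was at 0.407 in Pro CM and 0.589 in Pro MDI, against 1.10 at 0h. Of 6 neural markers the sum was 28.2 in Pro CM and 12.8 in Pro MDI, against 3.88 at 0h. Most of it was the tubulin gene Tubb3, at 25.2 and 10.3 against 0.371, while Map2 was at 1.74 and 1.65 against 3.07, and Sox2 and Sox10 were at 0 in all 7 libraries. Of 10 fibroblast markers, none of them at 0, the sum was 11596 at 0h, 9123 in 4h CM, 9344 in 4h MDI, 4322 in 24h CM and 6047 in 24h MDI, with 6460 in Pro CM and 6802 in Pro MDI. This sum was lowest in 24h CM, and its members differed in course. Pdgfra was at 191 at 0h, 46.1 in 4h CM, 36.6 in 4h MDI, 179 in 24h CM and 69.6 in 24h MDI. It was at 17.9 in Pro CM and 23.7 in Pro MDI. Thy1 was at 100 at 0h, 275 in 4h CM, 294 in 4h MDI, 79.0 in 24h CM and 108 in 24h MDI. It was at 133 in Pro CM and 162 in Pro MDI. The part of these differences in the Hox results was not tested.

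The second question was whether conditioned medium gave other Hox levels than fresh MDI at the same stage. At 4h only Hoxa7 passed the rule of size, at 3.56 in CM against 0.977 in MDI (log2 difference 1.20), as 1 of 13 measured Hox genes beside 1.10% of all genes that were higher in CM and 2.95% that were lower. In that pair 11 of 13 Hox genes were above 0, with a median difference of 0.28 against 0.03 over all genes. At 24h none of 15 was at least 2-fold different, beside 3.42% of all genes, and in preconfluent cells none of 13, beside 3.45%. In limma over the 6 treated libraries, with stage as a term, no Hox gene was called, beside 0% of 10889 genes. At an unadjusted p under 0.05 there were 130 genes, 1.19% of those tested, and none of the 14 Hox genes tested. The residual of this fit holds the interaction of stage and medium, so a difference that changes side between stages can go uncalled. Hoxa7, higher in CM at 4h, was at 3.86 in CM and 6.39 in MDI in preconfluent cells. The Hox gene with the smallest p was Hoxd3 (log2 change 0.23, SE 0.16, limma adjusted p = 1.00), which was at 1.62 in CM and 0.896 in MDI at 4h, at 6.17 in CM and 4.98 in MDI at 24h, and at 0.485 in CM and 0.508 in MDI in preconfluent cells.

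In the authors' deposited table, the lowest Cuffdiff q-value of a Hox gene over the 7 pairs was 0.573. Only 17 to 20 of the 39 Hox genes were testable in each pair, so these values do not cover the rest. The share of all genes with a Cuffdiff p-value under 0.05 was not computed. For 4h MDI against 0h the Cuffdiff p-value in the authors' deposited table was 0.0522 for Hoxd3 and 0.0677 for Hoxa7. The only Hox genes with a p-value under 0.05 in the authors' deposited table were 2 weak ones, Hoxd10 for 4h MDI against 0h (0.0179) and Hoxc9 for 4h CM against 0h (0.0134).

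The list of Hox cofactors (10 genes, 9 tested) included Pbxip1, which is not itself a Pbx, Meis or Pknox gene. Meis2 had the highest level, with an FPKM of 38.6 at 0h, 62.6 in 4h CM, 80.0 in 4h MDI, 38.5 in 24h CM and 48.1 in 24h MDI. It rose at 4h by 0.86 (SE 0.16, limma adjusted p = 0.0422), the only 1 of 9 cofactors called in that contrast, beside 8.35% of all genes that rose, though its adjusted p was 0.0776 after rescaling to TPM. It fell by 0.71 between 4h and 24h (SE 0.13, limma adjusted p = 0.0364). At 24h against 0h Meis3 alone was called, and fell, 1 of 9 beside 9.86% of all genes called in either direction. In preconfluent cells 3 of 9 fell, beside 12.6% of all genes, and none rose, beside 13.7%. They were Meis1, at 9.06 in Pro CM and 9.99 in Pro MDI against 28.1 in the 0h control, Meis3, at 7.34 and 7.16 against 19.2, and Pbxip1, which encodes a protein that binds Pbx factors, at 7.80 and 9.03 against 42.4. Pbx2 and Pbx3, which bind DNA as partners of Hox proteins, were not called in any of the 5 contrasts. Median changes of the list, with Pbxip1 in it, were -0.37 at 4h and -0.57 in preconfluent cells against 0h.

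Of the Polycomb genes (22 genes, 20 tested), 4 fell at 4h, beside 6.86% of all genes, and none rose, beside 8.35%. Cbx6, a chromobox protein, was at 14.3 in 4h CM and 7.08 in 4h MDI against 54.1 at 0h, and Phf1, which helps to recruit the H3K27 methyltransferase, was at 10.4 and 6.46 against 26.9. Bmi1, a core repressor, was at 20.4 and 18.2 against 39.6, and Scmh1 also fell. In preconfluent cells 3 of 20 rose, beside 13.7% of all genes, and 4 fell, beside 12.6%. Ezh2, the methyltransferase itself, was at 54.3 in Pro CM and 49.7 in Pro MDI against 14.2 at 0h (log2 change 1.80, SE 0.26, limma adjusted p = 0.0165). Its partner Suz12 was at 27.7 and 25.6 against 11.4, and Cbx2 also rose. Ezh1, Bmi1, Cbx6 and Phf1 fell there. Between 4h and 24h Ezh2 and Ring1 rose, 2 of 20 beside 9.41% of all genes, and none fell, beside 9.11%. At 24h against 0h Phf1 fell, 1 of 20 beside 9.86% of all genes called in either direction. The median change of the list was -0.06 at 4h and -0.19 in preconfluent cells against 0h.

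Among 13 trithorax and demethylase genes, Wdr5, a subunit shared by H3K4 methyltransferase complexes, rose at 4h, to 27.9 in CM and 36.6 in MDI against 12.1 at 0h. It was the only 1 of 13 called there, beside 8.35% of all genes that rose and 6.86% that fell. It was not called after rescaling to TPM. In preconfluent cells 4 of 13 rose (Ash2l, Dpy30, Psip1 and Wdr5), beside 13.7% of all genes, and 3 fell, beside 12.6%. Those that fell were Kmt2a, the best-known Hox activator, at 4.00 in Pro CM and 4.44 in Pro MDI against 9.72 at 0h, Kmt2c, and Kdm6b, an H3K27 demethylase. After rescaling to TPM Dpy30 and Psip1 were not called. At 24h against 0h none of the 13 was called by limma, beside 9.86% of all genes. Between 4h and 24h Psip1 rose, 1 of 13 beside 9.41% of all genes.

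**Figure D5:**
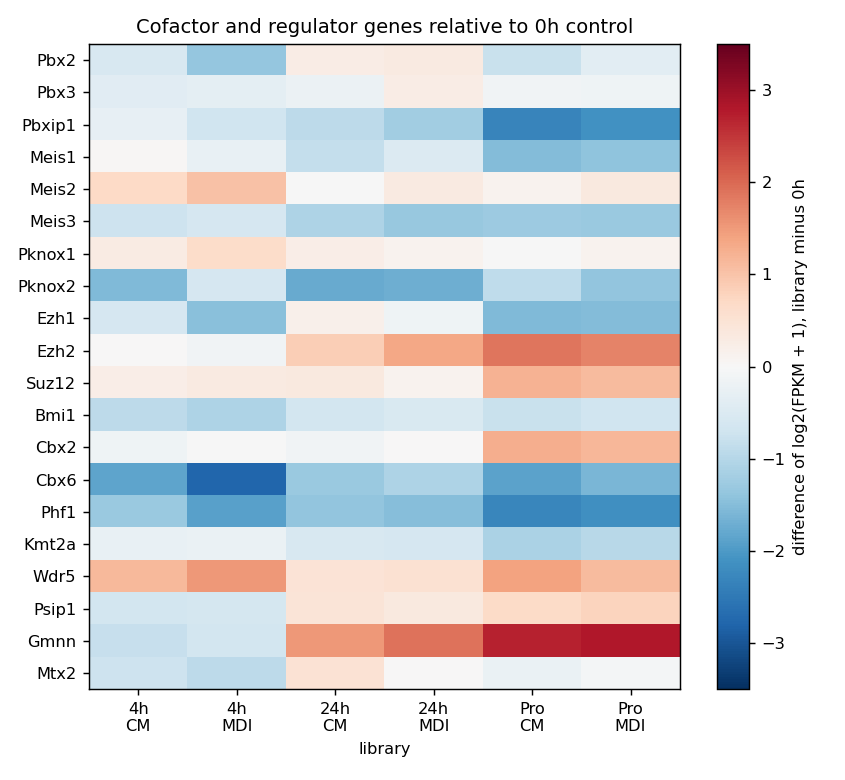
Difference of log2(FPKM + 1) from the 0h control (color) for 8 genes of the Hox cofactor list (with Pbxip1), Polycomb and trithorax genes, geminin (Gmnn) and the Hoxd neighbor Mtx2 in the 6 treated libraries. Cbx6 and Phf1 are lower than 0h in all 6, and Ezh2, Suz12 and Cbx2 are highest in the Pro libraries.

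Among genes that act upstream of Hox genes, as activators or otherwise (19 genes, 9 tested), only Gmnn was called. It encodes geminin, a replication inhibitor that also acts on Hox transcription, and was at 2.92 at 0h, 1.24 in 4h CM, 1.52 in 4h MDI, 10.3 in 24h CM, 13.5 in 24h MDI, 24.5 in Pro CM and 26.2 in Pro MDI. It rose at 24h against 0h, 1 of 9 beside 9.86% of all genes called in either direction. It also rose between 4h and 24h, beside 9.41% of all genes that rose, and in preconfluent cells against 0h, beside 13.7%. Cyp26b1, an enzyme that breaks down retinoic acid, was higher in MDI at 4h and higher in CM in preconfluent cells. It was at 12.0 in CM and 70.2 in MDI at 4h, 6.34 in CM and 6.07 in MDI at 24h, and 63.4 in CM and 13.8 in MDI in preconfluent cells. Rara, a retinoic acid receptor, was at 77.6 in CM and 37.9 in MDI at 4h.

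Of 42 other patterning factors 21 were tested. The limb mesenchyme factors Prrx2 and Prrx1 had the highest means, 158 and 109, followed by Twist2 and Twist1. At 4h Foxc2 rose, to 39.8 in CM and 18.0 in MDI against 7.22 at 0h, 1 of 21 beside 8.35% of all genes. Emx2 and Lhx2 fell, 2 of 21 beside 6.86%. At 24h against 0h Foxc2 rose and Emx2 and Twist1 fell, beside 9.86% of all genes called in either direction. Between 4h and 24h Tbx18, Twist1 and Twist2 fell, 3 of 21 beside 9.11% of all genes. In preconfluent cells Foxc2 and Nr2f1 rose, 2 of 21 beside 13.7% of all genes, and Emx2, Prrx2 and Twist1 fell, 3 of 21 beside 12.6%. After rescaling to TPM the rise of Foxc2 was not called at 4h, at 24h or in preconfluent cells (limma adjusted p from 0.0549 to 0.0571). The rise of Nr2f1 (adjusted p = 0.0525) and the fall of Twist1 between 4h and 24h (adjusted p = 0.0541) were not called either. Tbx15, a marker of subcutaneous fat, was at 13.9 at 0h, 33.9 in 4h CM, 20.1 in 4h MDI, 20.1 in 24h CM and 18.9 in 24h MDI, and was not called. En1, a gene of trunk skin fibroblasts, varied between 7.30 and 9.53 in the 7 libraries.

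Of 24 genes that lie among or next to the Hox clusters, 20 were in the tables, 9 of those were listed at 0 in all 7 libraries and 7 were tested. Mtx2, a mitochondrial gene beside the Hoxd cluster, was at 56.8 at 0h, 33.7 in 4h CM, 29.9 in 4h MDI, 81.6 in 24h CM, 57.1 in 24h MDI, 48.6 in Pro CM and 54.1 in Pro MDI. It rose between 4h and 24h by 1.08 (SE 0.20, limma adjusted p = 0.0359). Cbx5, beside the Hoxc cluster, fell at 4h, rose between 4h and 24h and rose in preconfluent cells against 0h. The last of these was not called after rescaling to TPM (limma adjusted p = 0.0853). Hotair, a non-coding RNA of the Hoxc cluster, was at 0.665 at 0h and between 0.0334 and 0.128 in the 6 treated libraries. Mir10a, Mir10b, Mir196a-1, Mir196a-2, Mir196b and Mir615 were listed at 0 in all 7 libraries.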

How the data were processed

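Total RNA was extracted with Trizol and sequenced after Illumina library preparation, per the labels' protocols. TopHat2 2.0.13 and Cuffdiff 2.2.0 were used, per the submitters' processing notes; settings, strandedness and the build are not stated in the sources used. The authors deposited a table of 23996 genes for each of 7 pairs of libraries, holding FPKM, and a p-value and a q-value from Cuffdiff, per the file headers. A library's FPKM were the same in each table (largest difference 1.11e-16), and the library of each column was taken from the sample names in the table. Loci overlapped the same symbol in GENCODE M21 (GRCm38) for 22391 of 22622 symbols and for all 39 Hox genes; 1 was added to each start.

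From these values, differences of log2(FPKM + 1) were computed for pairs of libraries, where either library reached an FPKM of 1. A called pair differs by at least 1. limma 3.58.1 (R 4.3.3) with a mean-variance trend was fitted across genes with a mean FPKM of at least 1, with stage and medium as terms and Benjamini-Hochberg adjustment at 0.05. In simulated data limma recovered 90% of 4-fold and 5% of 2-fold changes at 4h against 0h, 92% and 3% at 24h against 0h, 86% and 3% in Pro against 0h, 96% and 33% at 24h against 4h, and 98% and 65% for the medium effect. Between 5 and 16 unchanged genes per contrast were called in the simulated data. The simulation changed a smaller share of genes than limma called in the contrasts of stages, and held no interaction of stage and medium. Recovery in the real fits may therefore differ. Alternatives were other pseudocounts, filters, scalings and thresholds, and fits without a stage. Of the 15 Hox genes with a mean FPKM of at least 1, 14 are given by library or by range and 1 is not reported here, pairs and fits by the genes called, and lists by their highest and most changed members. The members and lists were chosen with earlier results of these data known. Depth is unknown, and no intervals for counting error were computed. Other tools were Python 3.11.15, pandas 2.3.3, numpy 2.4.6 and matplotlib 3.10.9.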

Additional observations from a re-analysis of the deposited data

How the results depend on the processing

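No paired analysis was possible because each condition has 1 library and the labels give no replicate numbers; the stage term already sets CM against MDI within a stage in the medium fit. No alternative reversed the sign of a called Hox gene. Of the alternative values of the 14 called changes, 110 stayed called and 14 did not. The 110 include the looser adjusted p threshold of 0.1, which uses the same fit, so no call could be lost there. They also include median-of-ratios scaling, which hardly altered the values, with log2 size factors from -0.0147 in 24h MDI to 0.0288 in 4h CM. The 110 are therefore not a count of independent checks. Counts of Hox genes at least 2-fold different kept within 1.5-fold except as follows. With a pseudocount of 0.1 they were 10 for 4h CM, 1 for 24h CM and 2 for 24h MDI against 0h. With a pseudocount of 5, which shrinks weakly expressed genes, they were 1 for 4h CM, 4 for 4h MDI, 3 for Pro CM and 3 for Pro MDI against 0h, 0 for CM against MDI at 4h, and 1 in CM and 3 in MDI for 24h against 4h. With an FPKM of at least 5, which leaves fewer genes, they were 5 for 4h MDI against 0h and 0 for CM against MDI at 4h. After rescaling to TPM they were 10 for 4h CM, 2 for 24h CM and 3 for 24h MDI against 0h.

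For limma, rescaling to TPM moved the median of all genes by -0.31 at 4h, -0.23 at 24h and -0.17 in Pro against 0h, and gave 9 Hox calls at 4h of 16 tested, each a fall. Without a low-value filter the calls were 8 at 4h, 1 at 24h and 7 in Pro against 0h, and 1 at 24h against 4h. With a mean FPKM of at least 5, where 5 Hox genes are left, Hoxd8 was the 1 call at 4h, in Pro and at 24h against 4h. At a threshold of 0.1 there were 9 at 4h and 8 at 24h against 4h. Without the 24h libraries there were 0 at 4h and 2 in Pro. Without Hox genes that share a locus, an alternative chosen after seeing the data, there were 3 at 4h, 2 in Pro and 2 at 24h against 4h. Shares of all genes called were computed for the main setting only. Counts of Hox genes under the alternatives, in pairs and in limma, therefore stand without that share. They show how the calls depend on the processing and are not results about Hox genes. The cause of the other changes was not tested.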
